A study of Mus musculus with 66 samples.

Results

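The mouse genome holds a pair of microRNA clusters in which a miR-193 hairpin is followed by a miR-365 hairpin. Mir193a and Mir365-2 lie on chromosome 11, and Mir193b and Mir365-1 lie on chromosome 16. All miRNAs of these 4 hairpins that the plasma tables list were taken as members. They are mmu-miR-193a-5p, mmu-miR-193a-3p and mmu-miR-365-2-5p from chromosome 11, mmu-miR-193b-5p, mmu-miR-193b-3p and mmu-miR-365-1-5p from chromosome 16, and mmu-miR-365-3p, which both clusters encode. These are 7 entries of the 1826 miRNA entries in the C3H table and of the 1885 in the F2 table, and all 7 passed the filter on low counts that left 1452 C3H entries for testing.

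A microRNA hairpin is cut into a 5p and a 3p arm, and each arm can be loaded into Argonaute, where bases 2 to 8, the seed, pair with messenger RNAs and lead to their repression. Hairpins that lie close together on 1 strand are often made from the same primary transcript. MiR-193 and miR-365 are known for roles in the differentiation of brown fat and muscle and as growth-restraining miRNAs in several tumor types, and miRNAs released from cells are found in plasma inside vesicles or bound to proteins. MiR-122, the dominant miRNA of hepatocytes, serves as a reference for liver-derived RNA in plasma.

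Small RNA from 50 µl of plasma was sequenced with barcodes that mark single molecules, and counts are unique molecular indices (UMIs). C3H is an inbred strain prone to liver tumors. The 13 C3H mice were all male, carried the label of more than 12 months after irradiation, and were bled by cardiac puncture at necropsy, 8 with hepatocellular carcinoma (HCC) and 5 without (non-HCC). The study's methods count spontaneous and radiation-induced tumors among the HCC mice and the labels do not say which is which, so they were treated as 1 group. The F2 mice, second-generation offspring of BALB/c females and C3H males, were irradiated, of both sexes and all later found with HCC, and were bled from the tail vein at 1, 6, 12 or 18 months after exposure. The F2 table has 53 columns for 53 samples of 15 mice, and a column could not be tied to a mouse or a time. The labels give no age in either cohort.

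The C3H libraries held 9513136 to 14247488 miRNA UMIs (medians of 11136227 in HCC and 13529977 in the non-HCC mice), and the F2 libraries 205194 to 3020311 (median 846338). No value from 1 to 9 occurs in either table, so an entry of 0 was read as fewer than 10 UMIs. Levels of the C3H mice are log2 of the UMIs plus 1, divided by a relative spike-in count, the mean of UniSP2 and UniSP4 in a mouse over the geometric mean of all mice. Relative spike-in counts ran from 0.347 to 1.96. HCC mice 3 and 7 stood apart from the rest of their group, with the highest relative spike-in counts of all 13 mice (1.83 and 1.96) and the lowest miR-122-5p of the HCC mice (229906 and 282512 UMIs, against at least 1197518 in the others), so results are also given without these 2 mice.

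The sequences of the members are shown because they tell which UMIs can be assigned to a copy. Mature sequences from RefSeq (mouse build GRCm38.p6) are written 5′ to 3′ with the seed in capitals, and all 7 members were matched by name.
miR-193a-3p: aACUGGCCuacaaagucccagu
miR-193b-3p: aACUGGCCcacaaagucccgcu
miR-193a-5p: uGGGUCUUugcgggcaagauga
miR-193b-5p: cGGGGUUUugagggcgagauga
miR-365-2-5p: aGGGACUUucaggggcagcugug
miR-365-1-5p: aGGGACUUuugggggcagaugug
miR-365-3p: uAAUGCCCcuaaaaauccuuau

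The 3p arms of miR-193a and miR-193b share their seed and differ at 3 of 22 positions outside it, U9C, A20G and G21C, counted from 1 at the 5′ end with the base of miR-193a-3p first. The 5p arms of the same hairpins differ at 5 of 22 positions, U1C, U5G, C6U, C11A and A16G, of which 2 lie in the seed, so that miR-193a-5p and miR-193b-5p have different seeds. MiR-365-2-5p and miR-365-1-5p share their seed and differ at 3 of 23 positions, C10U, A11G and C19A. MiR-365-3p has the same sequence from both hairpins, so its UMIs cannot be assigned to a copy. Of the 1679 mature miRNAs in the RefSeq table, none outside the members has any of these 5 seeds. The arms of the 2 copies therefore differ by few bases, and how the alignment treated mismatched or trimmed reads could move UMIs between copies.

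The hairpins are shown to place both arms in each copy, with the mature arms in capitals and coordinates in GRCm38, all on the plus strand. Mir193a spans chr11:79711969-79712034 and Mir365-2 spans chr11:79726400-79726511, with 14365 bases between them and no other annotated gene over either. Mir193b spans chr16:13449523-13449601 and Mir365-1 spans chr16:13453840-13453926, with 4238 bases between them. The GENCODE M21 annotation places both chromosome 16 hairpins inside the antisense gene Gm15738 (chr16:13354374-13468755), on the opposite strand and outside its exons.
Mir193a: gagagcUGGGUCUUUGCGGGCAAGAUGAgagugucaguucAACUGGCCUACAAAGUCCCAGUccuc
Mir365-2: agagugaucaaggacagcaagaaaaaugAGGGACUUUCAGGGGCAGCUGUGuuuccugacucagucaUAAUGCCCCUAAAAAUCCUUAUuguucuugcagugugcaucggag
Mir193b: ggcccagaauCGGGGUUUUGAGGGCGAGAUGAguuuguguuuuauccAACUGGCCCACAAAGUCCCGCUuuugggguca
Mir365-1: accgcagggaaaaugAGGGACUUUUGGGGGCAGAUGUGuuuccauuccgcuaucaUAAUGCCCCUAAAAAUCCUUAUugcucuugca

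The plasma of HCC mice was compared with that of non-HCC mice to ask which of these miRNAs change when C3H mice carry a liver tumor. All 3 arms particular to the chromosome 11 copy and miR-365-3p were higher in HCC mice by exact permutation of the mice (unadjusted p under 0.05). None of the 3 arms particular to the chromosome 16 copy passed that test. Of all miRNAs tested, 12.8% were higher by the same test (186 of 1452). In edgeR's quasi-likelihood test over all 1452 miRNAs, 3 of the 7 members were called higher at an adjusted p under 0.05, miR-193a-5p, miR-193a-3p and miR-365-3p. The background was 7.51% of the miRNAs tested called higher (109 of 1452). None was called lower, with 3 lower among the 283 at an unadjusted p under 0.05. The median log2 fold change was 2.23 over the 7 members and 0.78 over all miRNAs tested. With TMM factors, which take the scale from the miRNA counts, these medians were 1.37 and 0.17, and the members are read against these medians.

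Mmu-miR-193a-5p, the 5p arm of the chromosome 11 miR-193 hairpin, had 541, 527, 116, 583, 407, 487, 132 and 331 UMIs in HCC mice 1 to 8 and 111, 79, 78, 92 and 24 UMIs in the non-HCC mice 1 to 5. On the raw counts HCC mice 3 and 7 lay just above the highest non-HCC mouse, and the other HCC mice lay well above it. After division by the spike-ins, 6 of the 8 HCC mice exceeded all non-HCC mice, and mice 3 and 7 lay among them. The mean log2 level was 8.59 ± 1.77 (SD, n = 8) in HCC and 5.83 ± 0.48 (SD, n = 5) in the non-HCC mice, a difference of 2.76 (95% interval 0.90 to 4.51, exact two-sided permutation p = 0.0109 over all 1287 splits). EdgeR called its log2 fold change of 3.42 ± 0.80 (standard error, adjusted p = 0.0125).

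Mmu-miR-193a-3p, the arm with the miR-193 seed from the same hairpin, was scarcer. HCC mice 1 to 8 had 44, 73, 28, 96, 70, 47, 27 and 39 UMIs, and non-HCC mice had 21, 17, 11, 11 and 11. HCC mice 3 and 7 again had the fewest UMIs of their group. The difference in mean log2 level was 2.23 (5.81 ± 1.56 in 8 HCC and 3.58 ± 0.35 in 5 non-HCC mice, SD, 95% interval 0.65 to 3.82, exact permutation p = 0.0117), and 7 HCC mice exceeded every non-HCC mouse. EdgeR called its log2 fold change of 2.90 ± 0.75 (standard error, adjusted p = 0.0200), a call lost without non-HCC mouse 1, 2, 3 or 4 (edgeR adjusted p up to 0.0664). Several non-HCC mice lay close to the lowest value listed, so their counts are imprecise.

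Mmu-miR-365-2-5p, the arm that marks the chromosome 11 copy of miR-365, had 78, 53, 34, 44, 38, 59, 31 and 71 UMIs in HCC mice and 27, 31, 23, 20 and 0 UMIs in the non-HCC mice. The lowest HCC mouse equalled the highest non-HCC mouse at 31 UMIs. The difference in mean log2 level was 2.35 (5.82 ± 1.16 in 8 HCC and 3.46 ± 1.72 in 5 non-HCC mice, SD, 95% interval 0.73 to 4.13, exact permutation p = 0.0101). EdgeR gave a log2 fold change of 2.23 ± 0.75 (standard error) that was not called (adjusted p = 0.0708). Counting the entry of 0 in non-HCC mouse 5 as 9 UMIs lowered the difference in mean log2 level to 1.74 (exact permutation p = 0.0124).

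Mmu-miR-365-3p, the arm that both copies make, was the most abundant member, with 2338, 3012, 507, 3784, 2685, 2019, 733 and 2173 UMIs in HCC mice and 453, 545, 496, 708 and 368 UMIs in the non-HCC mice. HCC mice 3 and 7 lay near the non-HCC mice and the other 6 lay well above them. The mean log2 level was 11.01 ± 1.86 (SD, n = 8) in HCC and 8.68 ± 0.36 (SD, n = 5) in the non-HCC mice, a difference of 2.33 (95% interval 0.43 to 4.18, exact permutation p = 0.0287). On the spike-in scale 1 HCC mouse, mouse 3, lay below all non-HCC mice. EdgeR called its log2 fold change of 3.08 ± 0.79 (standard error, adjusted p = 0.0200), a call also lost without non-HCC mouse 1, 2, 3 or 4 (edgeR adjusted p up to 0.0674). The exact permutation test of its level just missed 0.05 without HCC mouse 4 or non-HCC mouse 1, 2, 3 or 5 (exact p up to 0.0545).

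The arms particular to chromosome 16 overlapped between the groups. MiR-193b-3p, which carries the same seed as miR-193a-3p, had 61, 56, 32, 85, 52, 65, 52 and 155 UMIs in HCC mice and 45, 45, 36, 61 and 44 UMIs in the non-HCC mice. In UMIs only HCC mouse 8, at 155, stood well outside the other mice. After division by the spike-ins, 5 of the 8 HCC mice exceeded all non-HCC mice and 2 lay below them all. Its mean log2 levels were 6.19 ± 1.18 (SD, n = 8) and 5.24 ± 0.48 (SD, n = 5), and the difference of 0.95 did not pass (95% interval -0.29 to 2.13, exact permutation p = 0.110). EdgeR gave a log2 fold change of 1.21 ± 0.60 (standard error, adjusted p = 0.277).

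Mmu-miR-193b-5p, the other arm of that hairpin, had 20, 16, 20, 31, 10, 29, 24 and 81 UMIs in HCC mice and 14, 17, 23, 27 and 12 UMIs in the non-HCC mice. HCC mouse 8 was again the highest in UMIs, and after division by the spike-ins 5 of the 8 HCC mice exceeded all non-HCC mice. The difference in mean log2 level was 0.90 (4.84 ± 0.92 in 8 HCC and 3.94 ± 0.47 in 5 non-HCC mice, SD, 95% interval -0.11 to 1.89, exact permutation p = 0.0723), with a log2 fold change of 1.08 ± 0.64 (standard error, edgeR adjusted p = 0.397). MiR-365-1-5p, the arm that marks the chromosome 16 copy of miR-365, had 0, 0, 17, 12, 0, 51, 0 and 34 UMIs in HCC mice and 13, 0, 17, 0 and 17 UMIs in the non-HCC mice. With 4 of 8 HCC and 2 of 5 non-HCC mice at 0, its direction could not be read from these counts. The difference in mean log2 level was 0.39 (95% interval -2.75 to 3.53, exact permutation p = 0.779), and it turned to -0.07 on the TMM scale.

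**Figure D1:**
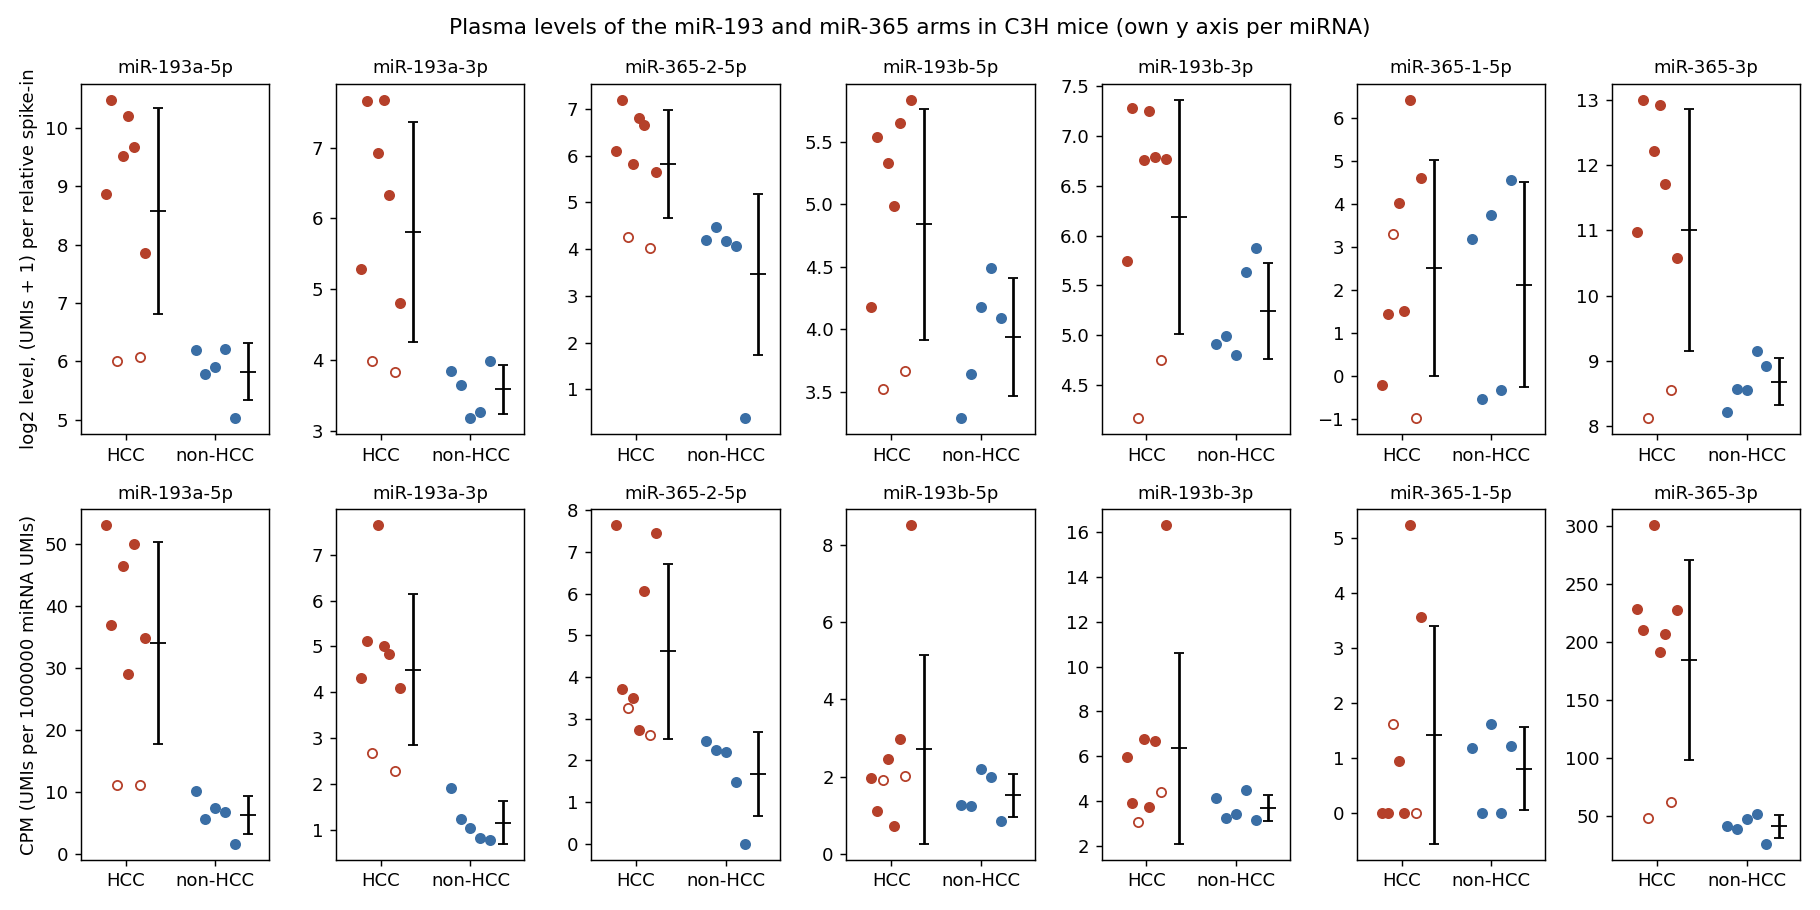
Each point is 1 C3H mouse, for the 7 members from left to right. The upper row shows the log2 spike-in-normalized level and the lower row the CPM (UMIs per 1000000 miRNA UMIs) on a linear axis, each panel with its own axis, and black marks give the mean and SD. HCC mice 3 and 7 are drawn as open circles. In the upper row they lie among or near the non-HCC mice, and both lie below all of them for miR-193b-3p. In the lower row all 8 HCC mice lie above all 5 non-HCC mice for miR-193a-5p, miR-193a-3p and miR-365-2-5p.

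The choice of scale mattered most for HCC mice 3 and 7. As shares of all miRNA UMIs, given as counts per 1000000 (CPM), the chromosome 11 arms separated the groups completely. MiR-193a-5p made up 11.1 to 53.0 CPM in HCC mice (median 35.9) and 1.72 to 10.2 in the non-HCC mice (median 6.80), miR-193a-3p 2.28 to 7.64 against 0.788 to 1.92, and miR-365-2-5p 2.62 to 7.64 against 0 to 2.47. All 8 HCC mice exceeded all 5 non-HCC mice in each of these 3 arms, which on this scale held for 4.41% of the miRNAs tested, and on the spike-in scale for 1.52% of them and for none of the members. The exact permutation p on the share scale was 0.00155 for miR-193a-5p and 0.000777, the smallest that 8 against 5 mice allow, for the other 2 arms. MiR-365-3p made up 48.5 to 301 CPM in HCC mice (median 209) and 26.4 to 52.3 in the non-HCC mice (median 41.5), where 7 HCC mice exceeded every non-HCC mouse and the log2 share differed by 1.97 (exact permutation p = 0.00544). MiR-193b-3p (3.06 to 16.3 against 3.15 to 4.51 CPM, exact permutation p = 0.114) and miR-193b-5p (0.715 to 8.51 against 0.859 to 2.20 CPM, exact permutation p = 0.311) did not pass. At an exact p under 0.05, 14.3% of the miRNAs tested were higher on the share scale and 12.8% on the spike-in scale. A share also depends on every other miRNA of the library, and miR-122-5p alone made up 22000 to 427000 CPM in HCC mice and 1800 to 4240 in the non-HCC mice.

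Without HCC mice 3 and 7, 5 of the 7 members were called by edgeR on the spike-in scale, and the background of all miRNAs called higher grew as well, to 18.3% (256 of 1398). MiR-365-2-5p (log2 fold change 2.56, edgeR adjusted p = 0.0123) and miR-193b-3p (log2 fold change 1.54, edgeR adjusted p = 0.0258) were added to the 3 called with all mice. The exact permutation test then gave p = 0.00649 for each of miR-193b-3p and miR-193b-5p, with differences of 1.52 and 1.32 in mean log2 level. On the spike-in scale, whether the miR-193b arms passed the exact test therefore depended on these 2 mice, and the size of their differences stayed below that of the miR-193a arms, 2.87 for miR-193a-3p and 3.61 for miR-193a-5p without the same mice. By limma on log2 levels no member was called with all mice (adjusted p = 0.0836 for miR-193a-5p), where 3.03% of the miRNAs were called higher. TMM factors gave 3 members called at a background of 7.37%, DESeq2 gave 4 at 18.8% with its own size factors and 4 at 13.1% with those of the spike-ins, and a block for the replicate number gave 4 at 9.99%.

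Summed over the 3 arms particular to each copy, HCC mice 1 to 8 had 663, 653, 178, 723, 515, 593, 190 and 441 UMIs from chromosome 11, and non-HCC mice 1 to 5 had 159, 127, 112, 123 and 35. From chromosome 16 the same mice had 81, 72, 69, 128, 62, 145, 76 and 270 UMIs, and 72, 62, 76, 88 and 73 UMIs. The medians were 554 against 123 UMIs for chromosome 11 and 78.5 against 73 for chromosome 16. Chromosome 11 gave 62% to 90.1% of these UMIs in HCC mice (median 82.7%) and 32.4% to 68.8% in the non-HCC mice (median 59.6%). The groups overlapped in this share through HCC mouse 8, at 62% (exact binomial 95% interval 58.3 to 65.6), and the lowest share belonged to non-HCC mouse 5 at 32.4% (interval 23.7 to 42.1). The intervals cover counting error only. UMIs of different miRNAs also depend on how well each sequence is ligated and amplified, so the shares compare mice and do not measure how active each copy was. The largest part of the chromosome 11 sum was miR-193a-5p (median 447 UMIs in HCC and 79 in non-HCC mice). That of the chromosome 16 sum was miR-193b-3p (58.5 and 45), so the share mainly sets these 2 arms against each other.

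**Figure D2:**
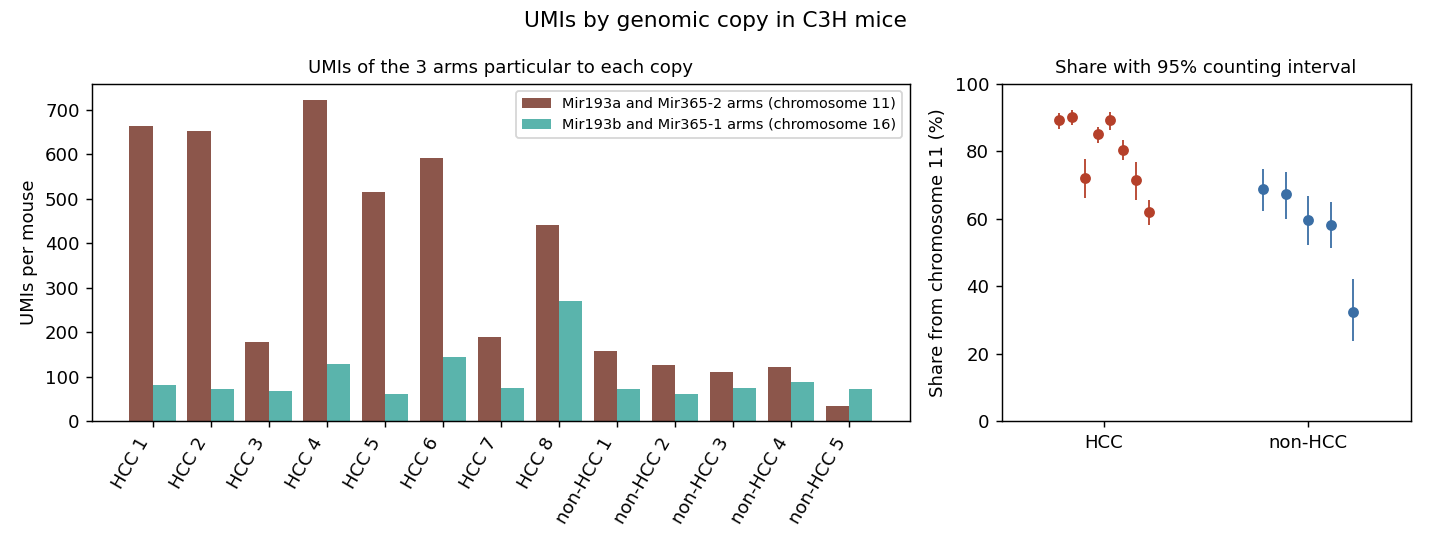
Left, bars give the UMIs of each C3H mouse for the 3 arms particular to chromosome 11 (brown) and to chromosome 16 (turquoise). Right, points give the share from chromosome 11 with its exact binomial 95% interval. Chromosome 16 arms stay between 62 and 145 UMIs in every mouse but HCC mouse 8 (270), and chromosome 11 arms run from 35 to 723 UMIs.

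Whether the copies differed in their change was tested on log2 ratios between members within a mouse, which do not depend on the spike-ins or the library size. Of 7 ratios formed, 6 had UMIs for both members in every mouse and were tested, with Benjamini-Hochberg adjustment over the 6. The ratio of miR-193a-3p to miR-193b-3p, the miRNAs that share a seed, was -0.46, 0.38, -0.19, 0.17, 0.42, -0.46, -0.92 and -1.96 in HCC mice and -1.06, -1.35, -1.62, -2.37 and -1.91 in the non-HCC mice. All HCC mice but mouse 8 exceeded all non-HCC mice. The means of -0.38 ± 0.79 (SD, n = 8) and -1.66 ± 0.50 (SD, n = 5) differed by 1.29 (95% interval 0.42 to 2.12, exact permutation p = 0.0117, adjusted p = 0.0350), which corresponds to 0.770 molecules of miR-193a-3p per molecule of miR-193b-3p counted in HCC and 0.316 in the non-HCC mice.

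For the 5p arms the log2 ratio of miR-193a-5p to miR-193b-5p was 2.02 to 5.21 in HCC mice and 0.94 to 2.90 in the non-HCC mice, and 5 HCC mice exceeded all non-HCC mice. The means of 3.75 ± 1.26 (SD, n = 8) and 1.89 ± 0.71 (SD, n = 5) differed by 1.86 (95% interval 0.45 to 3.23, exact permutation p = 0.0194, adjusted p = 0.0389), or 13.4-fold against 3.70-fold. The ratio of miR-365-2-5p to miR-365-1-5p held entries of 0 and was not tested.

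Mmu-miR-365-3p, which both copies encode, was set against the 3p arm of each miR-193. Its log2 ratio to miR-193b-3p was 5.24, 5.72, 3.94, 5.46, 5.66, 4.94, 3.79 and 3.80 in HCC mice and 3.30, 3.57, 3.75, 3.52 and 3.04 in the non-HCC mice. All 8 HCC mice exceeded all 5 non-HCC mice, HCC mice 7 and 8 by a narrow margin. The difference was 1.39 (95% interval 0.45 to 2.25, exact permutation p = 0.00544, adjusted p = 0.0326), or 28.2-fold against 10.8-fold. Its log2 ratio to miR-193a-3p was 5.20 ± 0.54 (SD, n = 8) in HCC and 5.10 ± 0.57 (SD, n = 5) in the non-HCC mice, and the difference of 0.10 did not pass (95% interval -0.62 to 0.80, exact permutation p = 0.752). Thus the ratio of miR-365-3p to the chromosome 16 arm differed between the groups and that to the chromosome 11 arm was not shown to, within an interval that still allows a change of 0.80 on the log2 scale.

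Ratios between the arms of 1 hairpin did not differ between the groups beyond the spread between mice. The log2 ratio of miR-193a-5p to miR-193a-3p was 2.77 ± 0.54 (SD, n = 8) in HCC and 2.25 ± 0.73 (SD, n = 5) in the non-HCC mice (difference 0.53, 95% interval -0.22 to 1.31, exact permutation p = 0.165). That of miR-193b-5p to miR-193b-3p was -1.35 ± 0.51 and -1.31 ± 0.45 in the same mice (difference -0.04, 95% interval -0.66 to 0.57, exact permutation p = 0.875). In C3H plasma the 5p arm was thus the more abundant arm of miR-193a in 13 of 13 mice, and the 3p arm that of miR-193b in 13 of 13. The 3 ratios that passed lost their adjusted call in 8, 9 and 8 of the 13 tests that left out 1 mouse. These were the tests without HCC mouse 1, 2, 4, 5 or 6 or non-HCC mouse 3, 4 or 5. For the 5p arms the call was also lost without non-HCC mouse 2. The adjusted exact permutation p reached 0.0788 for miR-193a-3p to miR-193b-3p, 0.0848 for the 5p arms and 0.0727 for miR-365-3p to miR-193b-3p. The unadjusted exact p over the tests that left out 1 mouse reached 0.0303, 0.0424 and 0.0121.

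**Figure D3:**
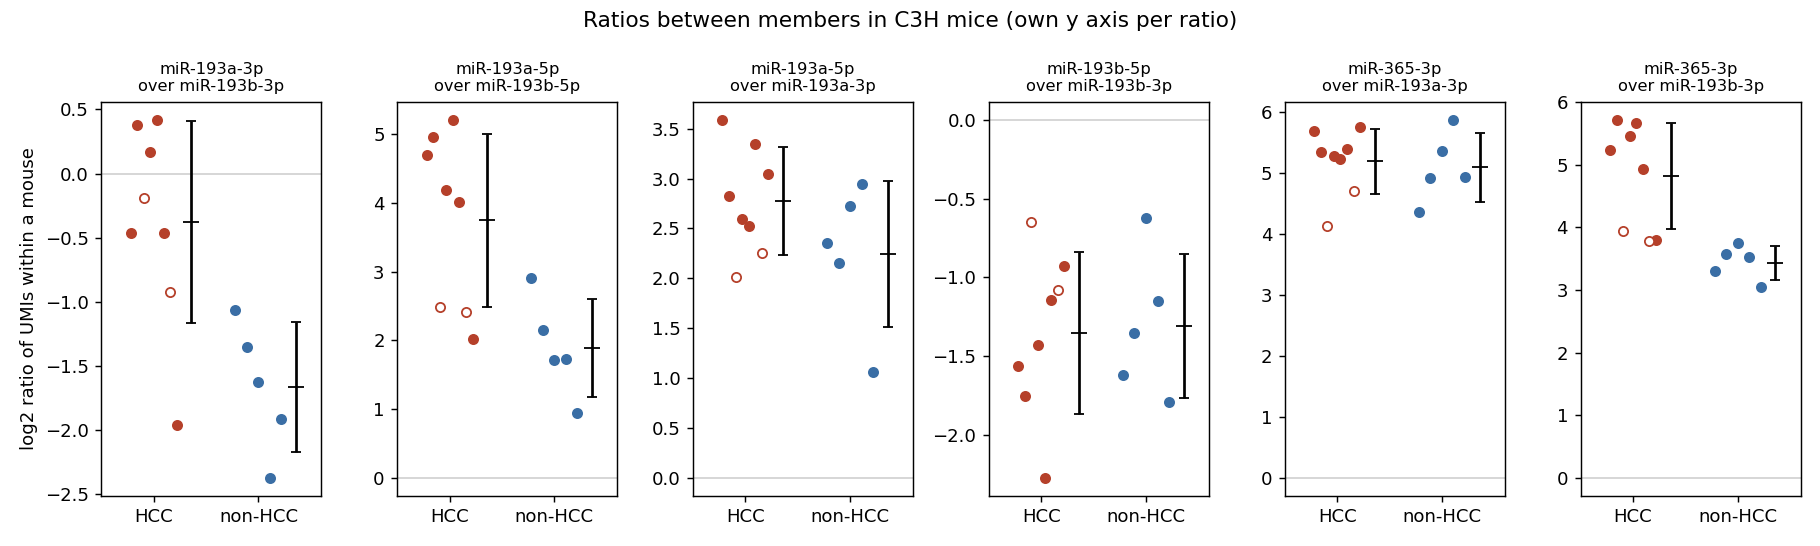
Each point is the log2 ratio of UMIs of a pair of members in 1 C3H mouse, for the 6 ratios tested, each on its own axis, with mean and SD in black and HCC mice 3 and 7 as open circles. The ratios of miR-193a to miR-193b and of miR-365-3p to miR-193b-3p lie higher in HCC mice, with all 8 above all 5 non-HCC mice in the last panel, and the ratios between arms of 1 hairpin overlap.

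Markers of liver and of blood cells were read beside these results. Of 10 liver miRNAs, 7 were called higher (both arms of miR-122 and of miR-192, miR-802-5p, miR-148a-3p and miR-194-5p), with a median log2 fold change of 4.02 over the list. For miR-122-3p, the passenger arm of the hepatocyte miRNA, the log2 fold change was 6.72 ± 1.24 (standard error, edgeR adjusted p = 0.00566). The summed liver level spanned 18.05 to 23.86 with HCC and 16.61 to 18.08 without, so the groups barely overlapped, and the chromosome 11 arms had smaller log2 fold changes than miR-122-5p at 7.34 ± 1.17 (standard error, edgeR adjusted p = 0.00303). None of 6 red cell, 5 platelet and leukocyte and 5 muscle miRNAs was called, and no marker was at 0 in any mouse. The median log2 fold changes of these lists were -0.54, -0.69 and 1.47, against 0.78 over all miRNAs tested. Summed levels were 19.38 to 22.95 in HCC and 21.40 to 22.71 in the non-HCC mice for red cells, 16.41 to 19.01 and 17.65 to 19.78 for platelets and leukocytes, and 11.85 to 17.83 and 13.64 to 15.11 for muscle. The part of these cell types in the results above was not tested. In plasma, a change in the number of cells that release a miRNA cannot be told apart from a change in the amount each releases.

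Among the 8 HCC mice, which cluster varied together more closely depended on the scale. On the spike-in scale Spearman's rank correlation was 0.93 between miR-193a-5p and miR-193a-3p, 0.95 between miR-193a-5p and miR-365-2-5p and 0.90 between miR-193a-3p and miR-365-2-5p, and as shares of miRNA UMIs these chromosome 11 pairs had 0.52, 0.76 and 0.17. On chromosome 16, miR-193b-5p had 0.71 with miR-193b-3p and 0.64 with miR-365-1-5p, and miR-193b-3p had 0.24 with miR-365-1-5p, against 0.88, 0.79 and 0.52 as shares. MiR-365-1-5p was listed at 0 in 4 of the 8 mice. MiR-365-3p had 0.98 with miR-193a-5p on the spike-in scale and 0.79 as shares. The median over all 6 pairs within a locus was 0.80, against 0.45 over the 9 pairs between loci, and as shares these medians were 0.64 and 0.31. The levels share the spike-in divisor, and over all pairs of 699 miRNAs the median rank correlation in the 13 C3H mice was 0.66 on the spike-in scale and 0.13 on the share scale, so rank correlation on the spike-in scale is read here as a description only.

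The members were also set against miR-122-5p across the HCC mice. Rank correlation on the spike-in scale was 0.95 for miR-193a-5p, 0.90 for miR-193a-3p and 0.95 for miR-365-2-5p, 0.90 for miR-365-3p, and 0.43 for miR-193b-5p, 0.88 for miR-193b-3p and 0.02 for miR-365-1-5p. As shares it was 0.81, 0.43 and 0.64 for the chromosome 11 arms in the same order, 0.40 for miR-365-3p, and 0.05, 0.26 and 0.02 for the chromosome 16 arms. The copies were thus not cleanly apart on the spike-in scale, and on the share scale the chromosome 11 arms had the higher values. None of the share-scale values passed an exact permutation test over all orders of the 8 mice (Benjamini-Hochberg over 28 relations). Its adjusted p was 0.195 for miR-193a-5p, 0.538 for miR-193a-3p and 0.337 for miR-365-2-5p. MiR-365-1-5p was listed at 0 in 4 of the 8 mice, where its spike-in level follows the divisor alone. All these rank correlations rest on 8 mice, of which mice 3 and 7 were low in most of these quantities on the spike-in scale. For each member the 2 mice farthest from its own median level were then left out, so the pair of mice differed between members. Rank correlation to miR-122-5p on the spike-in scale was then 0.89, 0.83 and 0.94 for the chromosome 11 arms and 0.77 for miR-365-3p. For the chromosome 16 arms it was -0.37, 0.71 and -0.60.

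Outside the members, the miRNAs whose spike-in levels followed miR-365-3p most closely over the 13 C3H mice were miR-145a-5p (rank correlation 0.99), miR-99b-5p (0.98) and miR-125b-2-3p (0.97). For miR-193b-3p they were miR-672-5p (0.98), miR-99b-5p (0.96) and miR-125a-3p (0.96). On the share scale the nearest to miR-365-3p outside the members were miR-29b-1-5p and miR-1843a-3p (0.92 each) and miR-615-5p (0.91). Among the members, miR-193a-5p was level with these (0.91, with 2 of 697 miRNAs higher). The nearest to miR-193b-3p outside the members were miR-23a-3p (0.88), miR-3572-3p (0.86) and miR-10a-5p (0.85). None of these miRNAs stood in both sets of neighbours of the same member, so the neighbours depended on the scale.

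In the F2 libraries, which were on average far shallower, miR-365-3p was again the most abundant member, with 25 to 325 UMIs (median 88). MiR-193b-5p followed with 14 to 97 UMIs (median 47) and miR-193a-3p with 12 to 60 (median 28), and these 3 members were above 0 in all 53 columns. MiR-193a-5p had 0 to 53 UMIs (median 23, 5 columns at 0), miR-365-1-5p 0 to 33 (median 14, 11 at 0), miR-193b-3p 0 to 56 (median 12, 18 at 0) and miR-365-2-5p 0 to 51 (31 of 53 columns at 0). The order below miR-365-3p was thus not that of the C3H mice, where miR-193a-5p came next.

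For miR-193, the order of arms in a hairpin and of copies in each arm mostly ran opposite to that in C3H plasma. Each comparison holds miR-193b-5p or miR-193a-3p. Their UMIs followed F2 library size little (rank correlation -0.03 and 0.17, against a median of 0.60 over 307 miRNAs). MiR-193b-5p exceeded miR-193b-3p in 52 of 53 F2 columns and in 0 of 13 C3H mice. MiR-193a-3p had more UMIs than miR-193a-5p in 34 of 53 columns, with 18 the other way, and fewer in 13 of 13 C3H mice. Between copies, miR-193b-5p exceeded miR-193a-5p in 52 of 53 columns and in 0 of 13 C3H mice. MiR-193a-3p exceeded miR-193b-3p in 51 of 53 columns and in 3 of 13 C3H mice. Neither copy prevailed in both arms. The share of copy-specific UMIs from chromosome 11 was 23.4% to 67.9% in the F2 columns (median 44.8%) and passed 50% in 13 of 53, against 8 of 8 HCC and 4 of 5 non-HCC C3H mice. Strain, sex, site of bleeding, time before detection and depth differ between the tables together and cannot be told apart. The F2 mice were all irradiated, and the study's methods count spontaneous tumors among the C3H mice, a difference that cannot be told apart from these either. No test was made, since the columns are repeated bleeds of 15 mice.

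**Figure D4:**
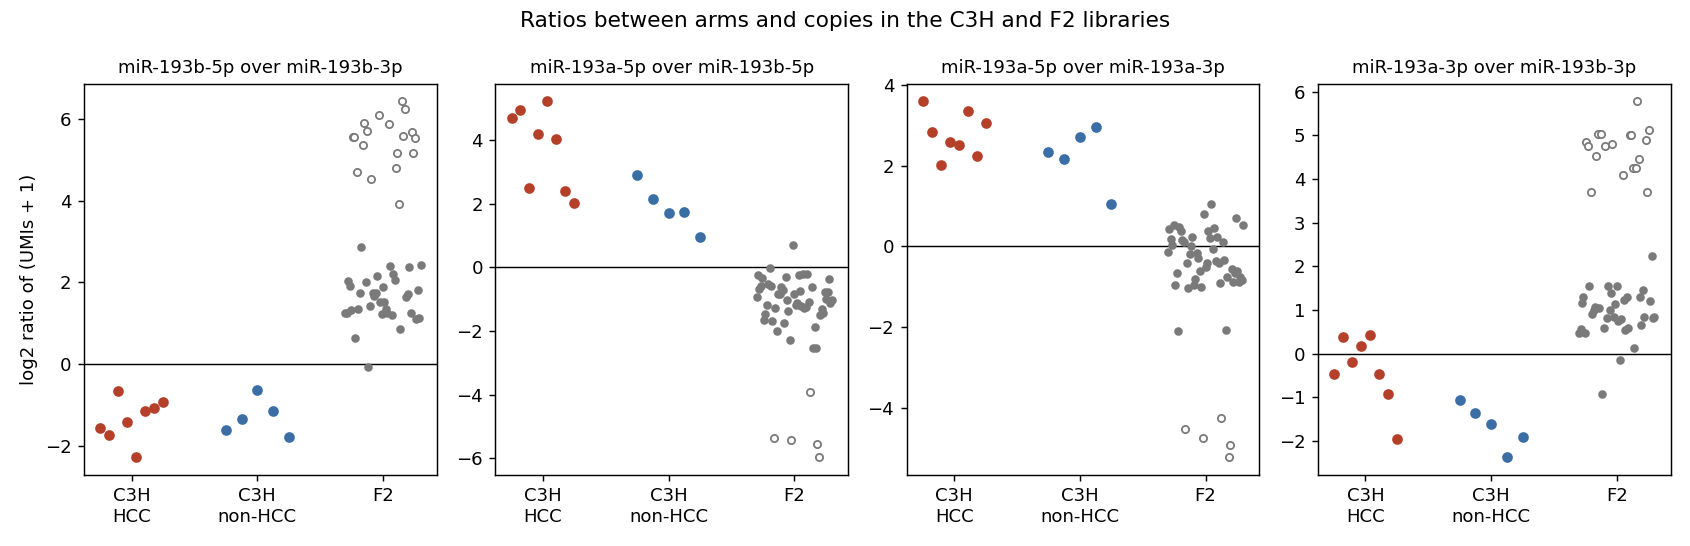
Points give the log2 ratio of UMIs plus 1 between arms or copies in the 8 HCC and 5 non-HCC C3H mice and the 53 F2 columns, with open circles for columns in which either member was listed at 0. The line at 0 marks equal UMIs. All 13 C3H mice lie below it for miR-193b-5p over miR-193b-3p, and 52 of 53 F2 columns above.

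In CPM, the F2 and C3H medians were 119 and 62 for miR-365-3p, 23 and 11.2 for miR-193a-5p, 35.4 and 2.68 for miR-193a-3p, 10.7 and 4.12 for miR-193b-3p, 58.2 and 1.96 for miR-193b-5p and 16.9 and 0.954 for miR-365-1-5p. MiR-365-2-5p went the other way, with medians of 0 and 2.72 CPM, and no ratio is given for it. These C3H medians pool the HCC and non-HCC mice. For miR-365-3p and miR-193a-5p the F2 median lay below that of the HCC mice (209 and 35.9 CPM). It lay above that of the non-HCC mice (41.5 and 6.80 CPM), so the direction depended on the C3H group. For each other member the F2 median lay on the same side of both C3H groups. On the log2 scale miR-365-3p (0.94), miR-193a-5p (1.04) and miR-193b-3p (1.38) lay near the median difference of 1.01 over the 263 miRNAs with UMIs in every library of both tables. MiR-193a-3p (3.72), miR-365-1-5p (4.15) and miR-193b-5p (4.89) lay above it, with 37, 31 and 12 of these 263 miRNAs higher. They were near the 4.30 of the 39 of these miRNAs whose median UMI count in C3H mice was no higher than that of miR-193b-3p, a set that had to reach 10 UMIs in much shallower libraries to be counted. Some members were not themselves among the 263. MiR-365-1-5p was at 0 in 4 of 8 HCC and 2 of 5 non-HCC mice and in 11 of 53 columns. MiR-193b-3p and miR-193a-5p were at 0 in 18 and 5 columns.

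The members also differed in how their UMIs followed the size of an F2 library. Spearman's rank correlation of the raw UMIs with the library total over the 53 columns was 0.75 for miR-365-3p, 0.57 for miR-365-2-5p and 0.52 for miR-193a-5p, near the median of 0.60 over 307 miRNAs with UMIs in all columns. It was 0.29 for miR-193b-3p, 0.17 for miR-193a-3p, 0.06 for miR-365-1-5p and -0.03 for miR-193b-5p. The UMIs of miR-193b-5p thus did not follow the size of libraries that differed 14.7-fold. The 3 members with the lowest correlations, miR-193b-5p, miR-365-1-5p and miR-193a-3p, were the 3 whose CPM in F2 lay furthest above that in C3H. CPM divides UMIs by the library total (median 846338 in F2 and 11825706 in C3H). A count that does not follow the total has a higher CPM in shallower libraries, so these 2 observations are not independent.

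**Figure D5:**
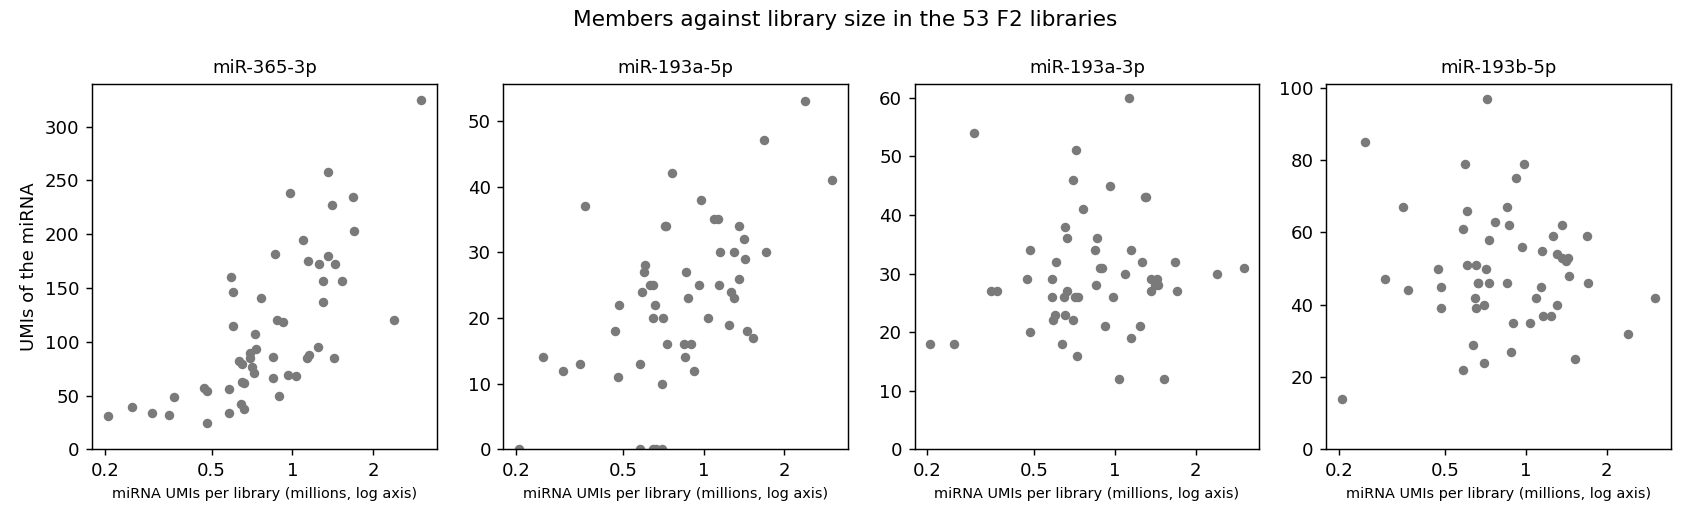
Each point is 1 of the 53 F2 columns, with its total miRNA UMIs on a log axis and the UMIs of the named member on a linear axis. MiR-365-3p climbs with the total (rank correlation 0.75), and miR-193b-5p does not (rank correlation -0.03).

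Over the F2 columns, the median rank correlation of members was no higher within a locus than between loci. This cannot show whether members of a copy vary together, since every pair within a locus held an arm with entries of 0. Such entries occurred for miR-193a-5p in 5, miR-365-1-5p in 11, miR-193b-3p in 18 and miR-365-2-5p in 31 of 53 columns. For all pairs of 307 miRNAs with UMIs in every column, the median rank correlation on the spike-in scale was 0.69. For the members it was 0.28 within a locus, 0.35 between loci and 0.57 with miR-365-3p. As shares it was 0.12, 0.27 and 0.24, against 0.23 for all pairs. The closest pair, miR-193a-3p and miR-193b-5p (rank correlation 0.86, and 0.73 as shares), joined different chromosomes and 2 of the 3 members that least followed library size. Next came miR-193b-5p and miR-365-1-5p of chromosome 16 (0.68 and 0.66). On the spike-in scale the neighbours of miR-365-3p outside the members were miR-23a-3p and miR-10a-5p (rank correlation 0.90 each) and miR-149-5p (0.89), and all 306 other miRNAs with UMIs in every column followed it more closely than miR-193b-3p did (0.29), against 263 of 306 as shares. For miR-193b-3p, itself at 0 in 18 columns, they were miR-497a-5p (0.45), miR-29a-3p (0.43) and miR-335-5p (0.43).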

How the data were processed

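The authors aligned single-end reads from plasma small RNA libraries to GRCm38, annotated miRNAs by miRBase 20, collapsed molecular barcodes and deposited UMI counts, not normalized, with the counts of both spike-ins. The submitters' processing notes also name Bowtie2 and FastQC. C3H columns were assigned to mice by the labels' mouse numbers, and the F2 columns only to their group.

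EdgeR 4.0.16 (R 4.3.3) tested HCC against non-HCC mice by quasi-likelihood on the counts, with the spike-in mean as library scale, after a filter (5 or more UMIs in 5 or more mice), which acts as a minimum of 10. Standard errors are the fold change over the square root of F. Exact two-sided permutation tests used all splits of the mice (numpy 2.4.6, pandas 2.3.3, scipy 1.17.1), and 95% intervals hold the shifts that this test does not refuse. The labels do not state that mice are independent beyond their numbers. The code was tested on simulated data. Alternatives were TMM, UniSP4 alone, limma 3.58.1, DESeq2 1.42.0, other filters, a replicate block and each mouse left out. Members, lists, ratios and tests were chosen with earlier results of these data known. The miRNAs named are the members, miR-122, the liver miRNAs and the 3 nearest to miR-365-3p and to miR-193b-3p in each table. Genes were placed by GENCODE M21.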

Additional observations from a re-analysis of the deposited data

Results flagged for a closer look

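Of 28 groups of values searched, 1 held a mouse far from its group. For miR-365-2-5p the log2 level of non-HCC mouse 5 was 0.39, and the next lowest non-HCC mouse was at 4.07, so that the gap took 0.903 of the whole range. The mouse was listed at 0 UMIs for this miRNA, and it also had the fewest UMIs of miR-193a-5p (24). Chance marks about 1 in 20 groups in this way.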

How the results depend on the processing

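EdgeR called 3 members, and 3 were called with TMM factors, UniSP4 alone, no filter and a filter of 20 UMIs, 4 with DESeq2 on either set of size factors, and 0 with limma. Without HCC mice 3 and 7, chosen after seeing the data, there were 5, at 18.3% of all miRNAs called higher. UniSP4 alone, no filter and the filter of 20 UMIs called 8.95%, 6.41% and 12.1% of all miRNAs higher. Leaving out 1 mouse gave 1 to 4 members, with 3.13% to 3.68% of all miRNAs called in the 4 fits with 1 member and 4.51% to 11.0% in the other 9. MiR-193a-5p kept its call in all 13 of these fits, miR-193a-3p and miR-365-3p lost theirs in 4 fits each (without non-HCC mouse 1, 2, 3 or 4), and miR-365-2-5p gained one without HCC mouse 3 or 7. The replicate numbers did not pair the mice (same-number correlations -0.13 to 0.07, none of 5 over 0.1), and with the replicate block 4 members were called. The unadjusted level test passed 4 members with all mice, where 12.8% of all miRNAs tested were higher by it. It passed 3 to 6 members with 1 mouse left out, counts that have no such share beside them and are not read further. The ratios passed 3 times, 2 without HCC mice 3 and 7, where miR-193a-3p to miR-193b-3p had an adjusted exact permutation p of 0.0519, and 0 to 3 with 1 mouse left out, when fewer splits exist.

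Direction turned only in values that passed no test. The log2 fold change of miR-365-1-5p (0.94) was -1.73 with the replicate block and, leaving out 1 mouse, -0.30 to 1.63. Its difference in level (0.39) was -0.07 on the TMM scale and -0.28 to 1.00 leaving out 1 mouse, at -0.28 and -0.22 without non-HCC mice 2 and 4 and -0.17 without HCC mouse 6. The log2 ratio of miR-193b-5p to miR-193b-3p ran from -0.17 to 0.13 (0.01 and 0.09 without HCC mice 2 and 5) and that of miR-365-3p to miR-193a-3p from -0.08 to 0.30. The median rank correlation within a locus was 0.80 in HCC mice and 0.28 in F2 and moved to 0.64 and 0.12 on the share scale. The causes were not tested. The scarce arms were often listed at 0. This held for miR-365-1-5p in 6 of 13 C3H mice and in 11 of the 53 shallower F2 columns, and for miR-365-2-5p in 31 of 53 F2 columns.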
